A study of Mus musculus with 24 samples.

Results

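The 10 genes described here encode the interferon-inducible proteasome and the core of the MHC class I pathway. They were taken as a named list of the pathway, with earlier results of these data known, and are 10 of the 55487 genes in the tables and 10 of the 14690 tested. The proteasome is the barrel-shaped protease that degrades most cytosolic proteins. In immune cells and under interferon, its constitutive catalytic subunits Psmb6, Psmb7 and Psmb5 are replaced by Psmb9, Psmb10 and Psmb8, and the cap of Psme1 and Psme2 (PA28 alpha and beta) can open its gate. Tap1 carries the resulting peptides into the endoplasmic reticulum, Tapbp (tapasin) holds the transporter beside empty class I molecules, and the heavy chains H2-K1 and H2-D1 pair with B2m to show the peptide at the cell surface. Resting muscle fibres carry little class I, and both class I and the immunoproteasome are known to increase in inflamed muscle.

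The samples were gastrocnemius muscles, a calf muscle of the hindlimb, from male C57BL/6J mice, 1 library per mouse and 8 mice in each of 3 groups. The casted mice with MOTS-c had both hindlimbs held in casts for 8 days and received MOTS-c, a peptide encoded in mitochondrial DNA. The daily dose was 15 mg/kg/day, given intraperitoneally as 2 injections on each of 8 days. The casted mice without the peptide had the same casts with injections of sterilized water on that schedule, and the uncasted mice had water and no casts. The labels give an age of 12 weeks, and the design text gives 10 weeks when mice were assigned to groups. No uncasted group with MOTS-c was analysed here, so the peptide was tested only in casted limbs.

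Values are TPM, a gene's share of its library corrected for length, which were then scaled here with a trimmed mean of log ratios. A log2 change is the difference between group means of log2(scaled TPM + 1), with the standard error (SE) from limma, and a gene passed the test when its adjusted p (Benjamini-Hochberg over all tested genes) was under 0.05. The +1 understates the change of low genes. The scaling bears on every direction given. On the deposited TPM, without scaling, the median tested gene was 0.39 higher on the log2 scale in casted than in uncasted muscle and 0.34 higher in casted muscle with MOTS-c than in uncasted muscle. The shift was -0.07 for MOTS-c against casting alone. Depth is unknown from TPM, and between 19832 and 21755 genes were above 0 in a library. Markers of the labelled tissue were abundant in every library but moved with casting. The 8 muscle markers summed to 56260 to 97982 scaled TPM in casted muscle with MOTS-c, 52383 to 81317 in casted muscle and 116150 to 133060 in uncasted muscle. With casting, 1 of them rose and 6 fell (limma), beside 28.7% and 27.7% of all tested genes. On the deposited TPM, 2 were higher and 5 lower, beside 62.2% and 7.43%. The part of this shift in the members' changes was not tested. Some libraries stood apart. Casted replicates 1 to 4 lay between 6.39 and 25.8 on the first principal component of the tested genes and casted replicates 5 to 8 between 29.5 and 36.5. MOTS-c replicate 5 lay at -17.8, against 13.7 to 29.6 for the other MOTS-c libraries. The labels name no batch, and the split of casted replicates 1 to 4 from 5 to 8 was seen in these same data. Results below for either set alone, with their p-values, are therefore descriptions. In bulk tissue, fewer cells of a type and less RNA per cell cannot be told apart.

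In the GRCm38 annotation, the class I locus on chromosome 17 held H2-K1 (ENSMUSG00000061232) at chr17:33996017-34000347, Tapbp (ENSMUSG00000024308) at chr17:33915899-33929292, Psmb9 (ENSMUSG00000096727) at chr17:34181987-34187764, Tap1 (ENSMUSG00000037321) at chr17:34187553-34197225, Psmb8 (ENSMUSG00000024338) at chr17:34197721-34201454 and H2-D1 (ENSMUSG00000073411) at chr17:35262730-35267499. The other members were B2m (ENSMUSG00000060802) at chr2:122147686-122153083, Psmb10 (ENSMUSG00000031897) at chr8:105935735-105938444, Psme1 (ENSMUSG00000022216) at chr14:55578123-55581529 and Psme2 (ENSMUSG00000079197) at chr14:55587441-55591113. Psme1 and Psme2 are thus near neighbours, as are Psmb9, Tap1 and Psmb8.

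The sequences upstream of the genes whose levels the results turn on are shown because class I promoters are known for a shared set of short elements. RefSeq (GRCm38.p6) gave windows for all 10 genes, 12 windows in all. Each is the 250 bases before a transcription start, on the gene's strand. Capitals mark matches, on either strand, to 4 motifs. The first, the interferon-response-like motif, is GAANNGAAA or AAANNGAAA. The others are the NF-kappa-B-like GGGANTNNC, the cyclic-AMP-response-like TGACG, and CCAAT. The letters were chosen after the sequences were seen.
H2-K1 (chr17:34000348-34000597, minus strand): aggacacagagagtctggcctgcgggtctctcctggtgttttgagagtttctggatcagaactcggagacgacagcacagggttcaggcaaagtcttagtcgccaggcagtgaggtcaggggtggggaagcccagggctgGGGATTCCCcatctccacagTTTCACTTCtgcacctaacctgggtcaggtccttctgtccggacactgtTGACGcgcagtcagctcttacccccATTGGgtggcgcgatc
H2-D1 (chr17:35262844-35263093, plus strand): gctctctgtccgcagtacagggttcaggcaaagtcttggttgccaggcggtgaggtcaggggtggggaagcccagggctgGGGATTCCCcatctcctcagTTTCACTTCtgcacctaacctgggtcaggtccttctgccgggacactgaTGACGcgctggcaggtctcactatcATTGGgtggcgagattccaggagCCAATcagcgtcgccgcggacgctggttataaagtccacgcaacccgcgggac
B2m (chr2:122147437-122147686, plus strand): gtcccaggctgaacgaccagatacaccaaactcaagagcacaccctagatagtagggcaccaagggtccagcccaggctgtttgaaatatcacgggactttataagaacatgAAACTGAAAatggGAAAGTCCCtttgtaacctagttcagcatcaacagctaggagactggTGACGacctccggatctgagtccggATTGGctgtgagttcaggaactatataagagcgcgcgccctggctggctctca
Tap1 (chr17:34187306-34187555, plus strand): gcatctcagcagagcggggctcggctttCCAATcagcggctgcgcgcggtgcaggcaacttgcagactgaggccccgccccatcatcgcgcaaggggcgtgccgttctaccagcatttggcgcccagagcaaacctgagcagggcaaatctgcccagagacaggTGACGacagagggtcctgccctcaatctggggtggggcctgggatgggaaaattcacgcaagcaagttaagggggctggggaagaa
Psmb10 (chr8:105938393-105938642, minus strand): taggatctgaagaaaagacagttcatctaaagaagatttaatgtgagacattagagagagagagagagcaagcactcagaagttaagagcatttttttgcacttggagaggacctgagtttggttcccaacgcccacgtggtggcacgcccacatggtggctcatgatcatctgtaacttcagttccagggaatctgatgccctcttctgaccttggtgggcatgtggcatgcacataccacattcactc
Psme1 (chr14:55578244-55578493, plus strand): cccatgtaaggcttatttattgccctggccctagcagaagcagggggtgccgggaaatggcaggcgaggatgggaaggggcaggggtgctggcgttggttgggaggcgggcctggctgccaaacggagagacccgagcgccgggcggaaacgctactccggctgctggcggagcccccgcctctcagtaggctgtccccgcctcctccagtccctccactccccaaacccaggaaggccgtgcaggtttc
H2-K1, H2-D1 and B2m held all 4 motifs. Toward the start, the heavy chains held the NF-kappa-B-like, interferon-response-like, TGACG and CCAAT matches in that order, and B2m held the interferon-response-like match before the NF-kappa-B-like one. No match overlapped another motif in these windows. Of 32851 mouse promoter windows of this length, 14.5% held an interferon-response-like match, 11.7% the NF-kappa-B-like motif, 17.8% TGACG and 33.8% CCAAT. All 4 stood together in 39 windows (0.119%), and 4 of those belong to H2-K1 (listed with 2 starts), H2-D1 and B2m. The H2-K1 and H2-D1 windows were 89.5% identical over their aligned bases. Tap1 and Psmb9 are transcribed away from each other from RefSeq starts 226 bases apart, so their windows share 225 bases, with TGACG and CCAAT. In the annotation that gave the gene coordinates above, both genes overlap by 212 bases on opposite strands. Psme2 held TGACG in both of its windows and the NF-kappa-B-like motif in 1 of them, and Tapbp held CCAAT. Psmb8, Psmb10 and Psme1 held none of these letters in this window. Matches are descriptions of sequence and were not tested as binding sites.

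All 10 genes were detected in every library, and their order was similar in the groups. In casted muscle with MOTS-c the means were 125.7 ± 12.98 scaled TPM for B2m, 104.4 ± 9.44 for H2-K1, 61.7 ± 7.27 for H2-D1, 34.8 ± 5.44 for Psme2 and 33.7 ± 4.92 for Psme1 (SD, n = 8). Tapbp followed at 15.7 ± 1.54, Psmb10 at 8.85 ± 1.65, Psmb8 at 4.03 ± 0.65, Tap1 at 2.05 ± 0.54 and Psmb9 at 1.67 ± 0.70 scaled TPM (SD, n = 8). The ranges of B2m and H2-K1 overlapped in this group, as did those of Psme2 and Psme1 and those of Tap1 and Psmb9, and the other neighbours did not overlap. The order in casted muscle was the same. In uncasted muscle Psme1, at 45.1 ± 6.11 scaled TPM (SD, n = 8), stood above H2-D1 and Psme2, with overlapping neighbours, and Psmb9 stood above Tap1. TPM are corrected for length, which allows levels to be compared between genes. Similar or overlapping genes, given below, make the values of H2-K1, H2-D1, Psme2, Tapbp, Psmb9 and Tap1 uncertain, and with them their places in the order.

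**Figure D1:**
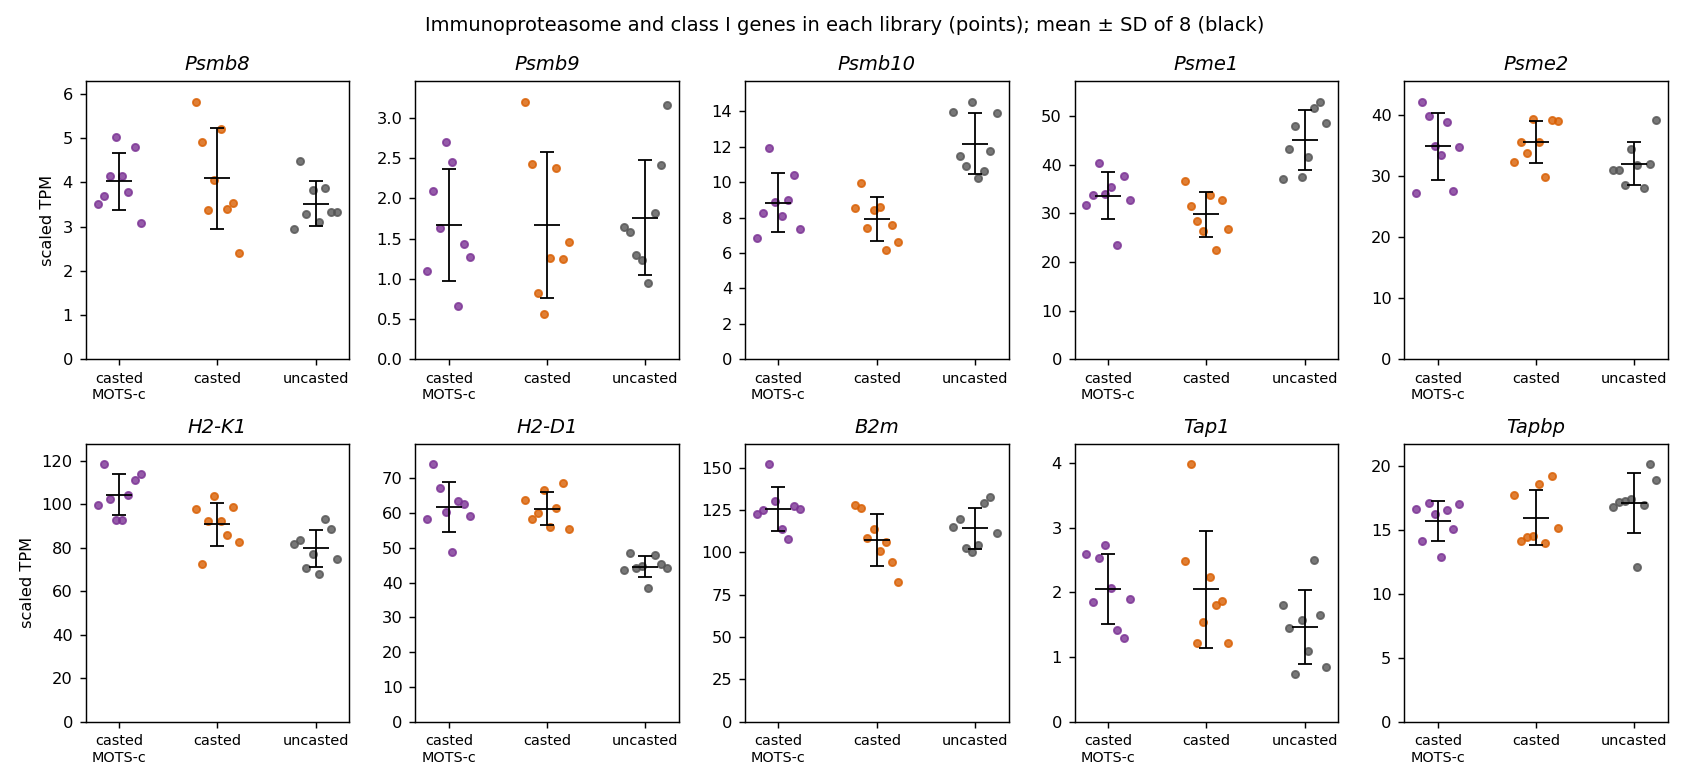
Scaled TPM of the 10 genes (vertical axes from 0) in each of 8 libraries per group (points, in order of replicate number), with the mean and SD in black; casted muscle with MOTS-c is at the left, casted muscle in the middle and uncasted muscle at the right of each panel. All casted libraries without MOTS-c lie above all uncasted ones for H2-D1 and below them for Psmb10 and Psme1. Of all tested genes, 11.5% lie apart in this way upward and 10.9% downward. With MOTS-c, the casted libraries overlap the uncasted ones for Psmb10 and Psme1.

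Casting changed the members unevenly. Against uncasted muscle, H2-D1 and H2-K1 rose, Psmb10 and Psme1 fell, and 6 members did not pass the test (limma). In the same comparison 28.7% of all tested genes were called higher and 27.7% lower, so the members' counts were no greater than the background. Their median log2 change was 0.03, beside 0.01 for all tested genes. Without scaling, 7 members were higher and 0 lower, beside 62.2% and 7.43% of all genes. Only statements relative to the middle of all genes, or ratios within a library, can therefore be read for direction.

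Among the inducible catalytic subunits, Psmb10 moved farthest with casting. Its lowest, median and highest values were 6.15, 7.98 and 9.98 scaled TPM in casted muscle, against 10.3, 11.6 and 14.6 in uncasted muscle. Every casted library lay below every uncasted one, which held for 10.9% of all tested genes in that direction. The log2 change was -0.57 ± 0.10 (SE, n = 8 each; limma adjusted p = 4.13e-05). Taking casted replicates 1 to 4 alone gave -0.45 and replicates 5 to 8 alone gave -0.68 (limma adjusted p = 0.00477 and 7.97e-05). Without scaling the change was -0.10 and did not pass (limma adjusted p = 0.45), while the median gene there was 0.39 higher.

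Psmb8 had 2.40, 3.80 and 5.83 scaled TPM (lowest, median, highest) in casted muscle, against 2.95, 3.33 and 4.48 in uncasted muscle. The casted values reached both above and below the uncasted ones. The log2 change was 0.15 ± 0.12 (SE, n = 8 each), short of the threshold (limma adjusted p = 0.293). It was 0.08 without casted replicate 1 and 0.22 without casted replicate 8, and passed in neither case (limma adjusted p = 0.555 and 0.0749). Psmb9, the lowest of the inducible subunits, had 0.56, 1.35 and 3.21 scaled TPM in casted muscle, against 0.94, 1.61 and 3.16 in uncasted muscle. Its groups overlapped over most of their range, and the log2 change of -0.08 ± 0.19 did not pass (SE, n = 8 each; limma adjusted p = 0.738).

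The constitutive subunits that these replace all rose with casting. Psmb5 averaged 197 ± 27.5 scaled TPM in casted and 107.8 ± 7.23 in uncasted muscle, a log2 change of 0.85 (SD, n = 8 each; limma adjusted p = 1.05e-07). Psmb6 averaged 235 ± 31.0 in casted and 165 ± 15.4 scaled TPM in uncasted muscle, which is a log2 change of 0.50 with a limma adjusted p of 0.000133. Psmb7 averaged 326 ± 33.9 in casted and 207 ± 12.6 scaled TPM in uncasted muscle, with a log2 change of 0.65 and a limma adjusted p of 2.17e-08. The other subunits of the 20S core rose too, 11 of 11, with a median of 0.96, beside 28.7% of all tested genes called higher. Psma7 changed by 1.72, Psma4 by 1.19 and Psmb1 by 0.92 on the log2 scale.

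**Figure D2:**
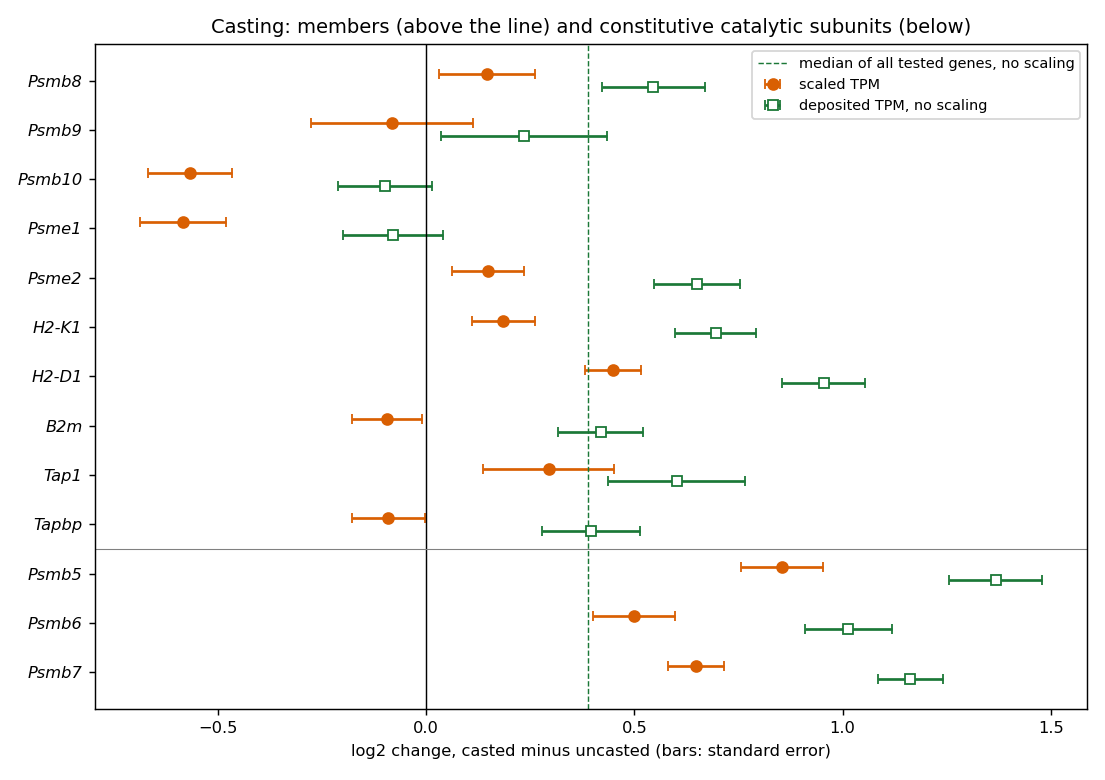
Log2 change of the 10 members (above the horizontal line) and of the constitutive catalytic subunits (below it) in casted minus uncasted muscle, with limma standard errors, from scaled TPM (filled circles) and from deposited TPM without scaling (open squares). The dashed line is the median of all tested genes on deposited TPM, 0.39. Psmb10, Psme1 and Psmb9 lie left of it on that scale. Psmb5, Psmb6, Psmb7 and the other members lie right of it, with Tapbp, at 0.40, close to the line.

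A ratio of both subunits within a library does not depend on scaling, and each inducible subunit was divided by the one it replaces. Exact permutation tests over all 12870 splits of 8 against 8 libraries were used, two-sided, with p adjusted over 15 tests of 5 ratios in 3 comparisons. The smallest p these splits allow is 0.0001554. Psmb10 made up 2.39% ± 0.45 of Psmb10 plus Psmb7 in casted muscle and 5.58% ± 0.85 in uncasted muscle (SD, n = 8 each). Its share was lower in every casted library, at 1.93% to 2.97%, against 4.58% to 6.85% in uncasted libraries. The log2 ratio differed by -1.28 ± 0.13 (SE; exact permutation test, adjusted p = 0.000777). The ratio is thus 0.413 times that of uncasted muscle.

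Psmb8 made up 2.10% ± 0.80 of Psmb8 plus Psmb5 in casted muscle and 3.18% ± 0.55 in uncasted muscle (SD, n = 8 each). The groups overlapped, and 7 of 8 casted libraries lay below the uncasted mean. The log2 ratio differed by -0.68 ± 0.21 (SE; exact permutation test, adjusted p = 0.021). With only casted replicates 1 to 4 the difference was -0.54 and did not pass (exact permutation test, adjusted p = 0.115). Psmb9 made up 0.75% ± 0.49 of Psmb9 plus Psmb6 in casted muscle and 1.04% ± 0.34 in uncasted muscle (SD, n = 8 each). That log2 ratio differed by -0.69 ± 0.40 and did not pass (SE; exact permutation test, adjusted p = 0.148). It passed without casted replicate 1, the library with the highest Psmb9, at -0.90 (exact permutation test, adjusted p = 0.0378).

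**Figure D3:**
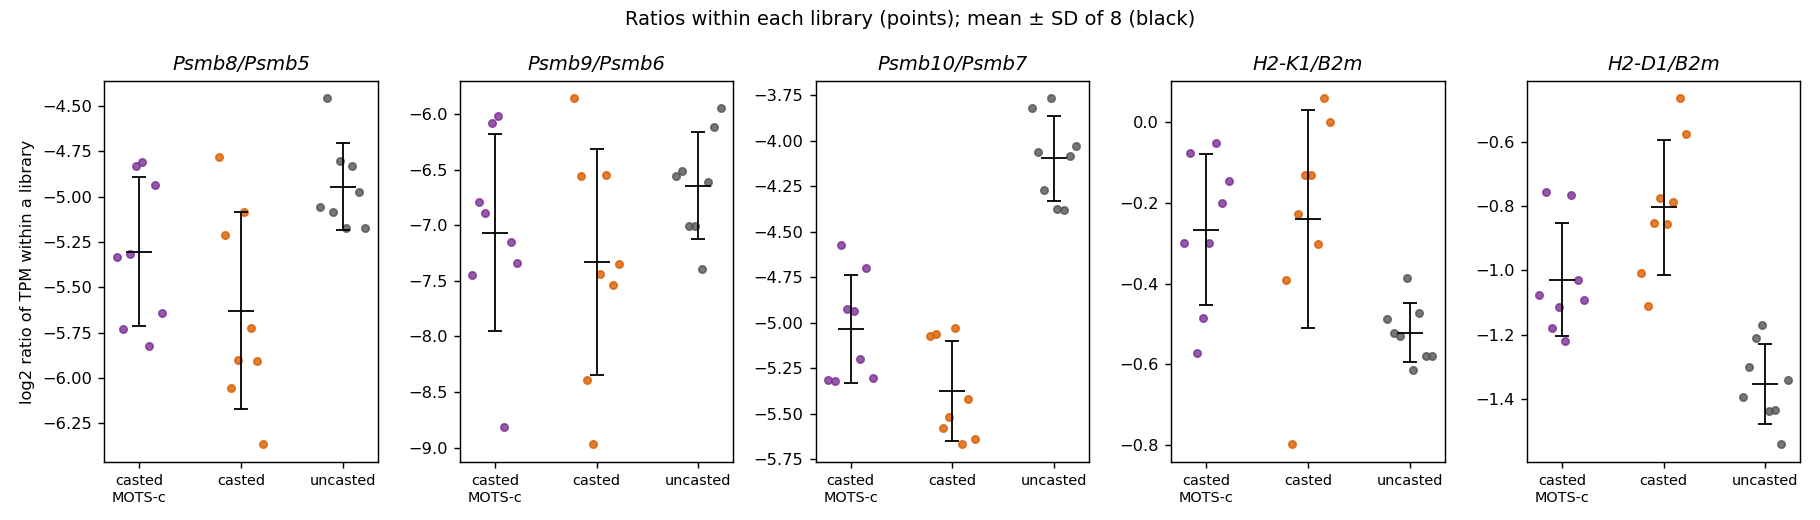
Log2 ratio of TPM within each library (points, 8 per group) for the inducible subunits over the constitutive ones and the heavy chains over B2m, with the mean and SD in black; casted muscle with MOTS-c is at the left, casted muscle in the middle and uncasted muscle at the right. For Psmb10/Psmb7 all casted libraries, with or without MOTS-c, lie below all uncasted ones, and for H2-D1/B2m all casted libraries without MOTS-c lie above them.

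The PA28 pair split. Psme1 had 22.4, 30.1 and 36.6 scaled TPM (lowest, median, highest) in casted muscle, against 37.2, 45.7 and 53.0 in uncasted muscle. Psme1 was thus lower in every casted library than in any uncasted one, as were 10.9% of all tested genes. Its log2 change was -0.58 ± 0.10 (SE, n = 8 each; limma adjusted p = 3.45e-05), and -0.54 and -0.63 with only casted replicates 1 to 4 and only 5 to 8. The unscaled TPM gave -0.08 and did not pass (limma adjusted p = 0.567). Psme2 had 29.8, 35.6 and 39.4 scaled TPM in casted muscle, against 28.0, 31.4 and 39.2 in uncasted muscle. Its groups overlapped, and the log2 change of 0.15 ± 0.09 did not pass (SE, n = 8 each; limma adjusted p = 0.148). Psme1 divided by Psme2 averaged 0.85 ± 0.15 in casted and 1.43 ± 0.27 in uncasted muscle (SD, n = 8 each), given as a description without a test. Psme2 shares 90.1% of its transcript, at 99.3% identity, with Psme2b, so its value is uncertain. Psme2b had a median deposited TPM of 1.32 in casted and 1.06 in uncasted muscle.

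Both heavy chains rose with casting. H2-D1 had 55.6, 60.8 and 68.6 scaled TPM (lowest, median, highest) in casted muscle, against 38.4, 44.4 and 48.6 in uncasted muscle. Every casted library lay above every uncasted one, as for 11.5% of all tested genes in that direction. The log2 change was 0.45 ± 0.07 (SE, n = 8 each; limma adjusted p = 4.34e-06), and it was 0.47 and 0.43 with only casted replicates 1 to 4 and only 5 to 8. In unscaled TPM the change was 0.95 (limma adjusted p = 6.90e-09).

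H2-K1 had 72.5, 92.4 and 103.8 scaled TPM in casted muscle, against 68.0, 79.4 and 93.1 in uncasted muscle. The groups overlapped. The log2 change of 0.18 ± 0.08 was just past the threshold (SE, n = 8 each; limma adjusted p = 0.0392). It did not pass in 9 of the 16 fits that left out 1 library of either group, where it was 0.15 to 0.18 (limma adjusted p = 0.0589 to 0.0897). The libraries left out there were casted replicates 1, 3, 4, 5 and 7 and uncasted replicates 3, 4, 5 and 8. H2-K1 and H2-D1 transcripts are alike (97.9% of H2-K1 is covered at 90.6% identity by H2-D1, and 14 genes resemble H2-K1 over more than 50% of it). The sources do not say how reads were divided between such copies, so both values are uncertain. The H2-K1 to H2-D1 ratio averaged 1.48 ± 0.12 in casted and 1.78 ± 0.13 in uncasted muscle (SD, n = 8 each; not tested).

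B2m, the light chain of all class I molecules, had 82.7, 107 and 128 scaled TPM in casted muscle, against 100.5, 113 and 132 in uncasted muscle. The groups overlapped, and the log2 change of -0.09 ± 0.08 did not pass (SE, n = 8 each; limma adjusted p = 0.354). Casted replicates 1 to 4 had between 108 and 128, and replicates 5 to 8 between 82.7 and 106 scaled TPM. Against uncasted muscle, the change was 0.06 for replicates 1 to 4 alone, short of the threshold, and -0.25 for replicates 5 to 8 alone, past it (limma adjusted p = 0.606 and 0.0243). B2m was higher in the unscaled TPM, at 0.42 (limma adjusted p = 0.000777).

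Relative to B2m, H2-D1 rose with casting. The H2-D1/B2m ratio averaged 0.58 ± 0.09 in casted and 0.39 ± 0.03 in uncasted muscle, with no overlap (SD, n = 8 each). The log2 ratio differed by 0.55 ± 0.09 (SE; exact permutation test, adjusted p = 0.000777), and by 0.42 with only casted replicates 1 to 4 and 0.68 with only 5 to 8 (exact permutation test, adjusted p = 0.00758 and 0.00606). The H2-K1/B2m ratio averaged 0.86 ± 0.15 in casted and 0.70 ± 0.04 in uncasted muscle (SD, n = 8 each). Its log2 difference of 0.28 ± 0.10 passed (SE; exact permutation test, adjusted p = 0.0316). With only casted replicates 1 to 4 it was 0.13 and did not pass (exact permutation test, adjusted p = 0.352). It also missed the threshold without any one of casted replicates 3, 4, 5, 7 or 8 or uncasted replicates 5, 7 or 8, at 0.24 to 0.28 (exact permutation test, adjusted p = 0.0509 to 0.0616).

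The peptide transporter and its partner did not pass. Tap1 had 1.21, 1.84 and 3.98 scaled TPM in casted muscle, against 0.73, 1.51 and 2.49 in uncasted muscle, with much overlap. The log2 change was 0.29 ± 0.16 (SE, n = 8 each; limma adjusted p = 0.113). Without uncasted replicate 6, the highest uncasted library, it was 0.37 and passed (limma adjusted p = 0.0449), and without casted replicate 2 it was 0.19 (limma adjusted p = 0.274). Tapbp had 14.04, 14.9 and 19.3 scaled TPM in casted muscle, against 12.1, 17.2 and 20.2 in uncasted muscle. Its groups overlapped and its log2 change was -0.09 ± 0.09 (SE, n = 8 each; limma adjusted p = 0.388). Tapbp was higher in the unscaled TPM, at 0.40 (limma adjusted p = 0.0043). Tapbp overlaps Zbtb22 on the same strand for 3422 bases, and Zbtb22 had a median deposited TPM of 10.8 in casted and 6.29 in uncasted muscle, so the Tapbp value is uncertain. Psmb8, Psmb10 and B2m each lie opposite an antisense partner with a median of 0 in every group. Psmb9 and Tap1, both expressed, overlap each other by 212 bases on opposite strands. Strandedness is not given, so the values of these low genes are uncertain as well.

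With MOTS-c, none of the members passed against casting alone (limma). Background calls were 0.0136% of tested genes higher and 0.00681% lower, 3 genes in all, while 1986 genes had an unadjusted p under 0.05. The members' log2 changes ran from -0.04 to 0.23. B2m had 107.9, 125 and 152 scaled TPM (lowest, median, highest) in casted muscle with MOTS-c, against 82.7, 107 and 128 in casted muscle. Its log2 change was the largest, 0.23 ± 0.08 (SE, n = 8 each), with a 95% interval of 0.06 to 0.40 and a limma adjusted p of 0.264. The unscaled change of B2m was smaller, 0.15 ± 0.10 (SE, n = 8 each; limma adjusted p = 0.444). On scaled TPM, the B2m change was 0.38 against only casted replicates 5 to 8 and passed (limma adjusted p = 0.0134). Against only replicates 1 to 4 it was 0.07 (limma adjusted p = 0.995). That split was seen in these same data, and replicates 5 to 8 held the lower B2m values. These 2 p-values are therefore descriptions and no test of MOTS-c.

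H2-K1 had 92.7, 103 and 118 scaled TPM in casted muscle with MOTS-c, against 72.5, 92.4 and 103.8 in casted muscle. Its log2 change was 0.20 ± 0.08, with a 95% interval of 0.05 to 0.36 (SE, n = 8 each; limma adjusted p = 0.271). The unscaled change of H2-K1 was smaller, 0.13 ± 0.10 (SE, n = 8 each; limma adjusted p = 0.508). H2-D1 was level at 0.00 ± 0.07 (SE, n = 8 each), with an interval of -0.13 to 0.14. Intervals of the other members were wider, up to -0.37 to 0.43 for Psmb9, the member with the lowest TPM. Omitting MOTS-c replicate 5 changed none of these calls, with 0.25 for B2m and 0.23 for H2-K1 (limma adjusted p = 0.339 and 0.322).

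**Figure D4:**
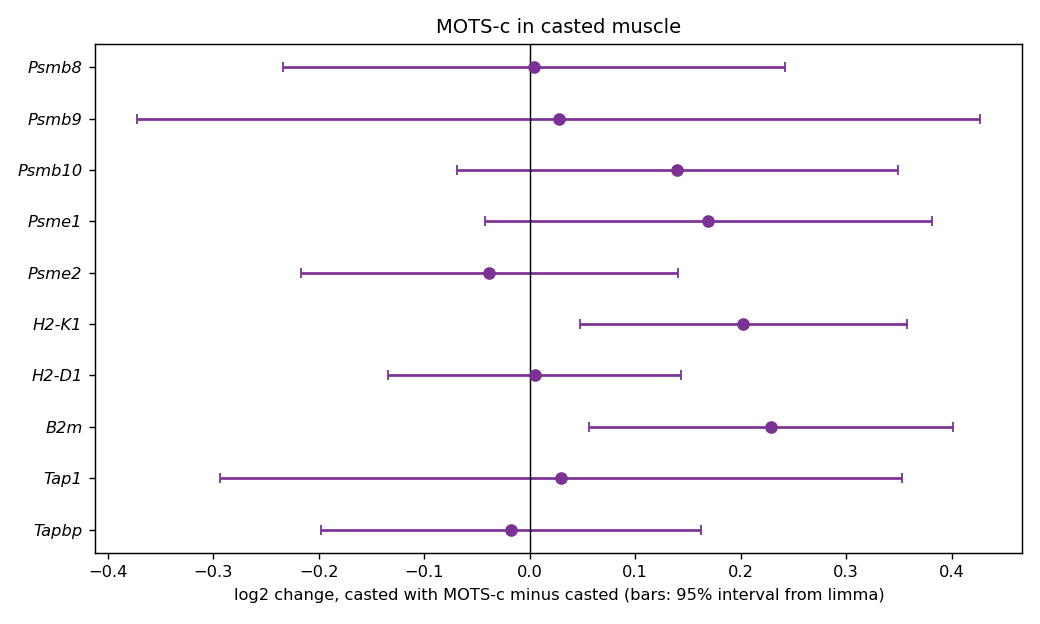
Log2 change of the 10 members in casted muscle with MOTS-c minus casted muscle, with 95% intervals from limma (n = 8 each). On this scaled TPM, the intervals of H2-K1 and B2m lie above 0 before adjustment for the number of genes tested, and those of the other 8 members include 0. Unscaled changes, not drawn, were smaller for both, at 0.13 ± 0.10 for H2-K1 and 0.15 ± 0.10 for B2m (SE, n = 8 each).

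None of the 5 ratios passed between casted muscle with MOTS-c and casted muscle. The Psmb10 share averaged 3.01% ± 0.62 with MOTS-c and 2.39% ± 0.45 in casted muscle (SD, n = 8 each), a log2 difference of 0.34 ± 0.14 (SE; exact permutation test, p = 0.0351, adjusted p = 0.0659). That ratio passed in 6 of 16 comparisons that left out 1 library, casted replicate 1, 2 or 5 or MOTS-c replicate 1, 2 or 8, at 0.38 to 0.39 (exact permutation test, adjusted p = 0.0378 to 0.0495). The H2-D1/B2m ratio averaged 0.49 ± 0.06 with MOTS-c and 0.58 ± 0.09 in casted muscle (SD, n = 8 each), a log2 difference of -0.23 ± 0.10 (SE; exact permutation test, p = 0.0406, adjusted p = 0.0676). It passed without casted replicate 1 or 2 or MOTS-c replicate 2 or 6, at -0.27 to -0.26 (exact permutation test, adjusted p = 0.0277 to 0.0378). Against only casted replicates 5 to 8 it was -0.36 (exact permutation test, adjusted p = 0.0265), and against only replicates 1 to 4 it was -0.09. Both sets come from a split seen in these same data, so that p-value is a description.

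Casted muscle with MOTS-c was also set against uncasted muscle, a comparison that shares libraries with the other comparisons. H2-D1 was 0.45 higher and H2-K1 0.39 higher on the log2 scale (limma adjusted p = 5.68e-06 and 0.000144). Psmb10 was -0.43 and Psme1 -0.41 (limma adjusted p = 0.00111 and 0.00167). The background was 26% higher and 24.7% lower. Without scaling, 7 members were higher and 0 lower in this comparison, beside 60% and 6.94% of all tested genes. H2-D1 alone did not overlap, with 49.0, 61.4 and 74.0 scaled TPM (lowest, median, highest) in casted muscle with MOTS-c, against 38.4, 44.4 and 48.6 in uncasted muscle, which held for 7.26% of all genes in that direction. The same 4 members were called in both comparisons with uncasted muscle. Tap1, at 0.32, did not pass (limma adjusted p = 0.089) except without uncasted replicate 6, at 0.40 (limma adjusted p = 0.0348). Of the ratios, Psmb10/Psmb7 was -0.94, H2-D1/B2m 0.33 and H2-K1/B2m 0.26 (exact permutation test, adjusted p = 0.000777, 0.00291 and 0.0126). Psmb8/Psmb5, at -0.36, did not pass (exact permutation test, adjusted p = 0.0802), but did without MOTS-c replicate 4 or 5, at -0.43 in both cases (exact permutation test, adjusted p = 0.0446 to 0.049).

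Other genes of the pathway were read from lists by function, in casted against uncasted muscle. Of 8 tested genes of other proteasome caps and assembly factors, 6 rose and 0 fell (limma), with a median of 0.36; the background of all tested genes was 28.7% higher and 27.7% lower. Among them were Pomp, which assembles new 20S cores, at 0.68, the proteasome inhibitor Psmf1 at 0.57 and the assembly chaperone Psmg4 at 0.71. Of 11 tested genes of peptide loading and trimming, 6 rose and 0 fell, with a median of 0.30. Canx, a lectin chaperone of new heavy chains, changed by 0.86, the cytosolic peptidase Tpp2 by 0.74 and the endosomal aminopeptidase Lnpep by 0.65. Of 22 listed other class I and class I-like genes, 13 were tested. Of these, 0 rose and 10 fell, with a median of -0.31, opposite in direction to H2-D1. Some listed genes resemble H2-K1, as H2-Q4 does over 91.1% of it at 90.3% identity. How reads were divided between such copies is not known, so this contrast is uncertain. Those that fell included Procr, the endothelial protein C receptor, at -0.66, the neonatal Fc receptor Fcgrt at -0.31 and the metabolite-presenting Mr1 at -0.28. On the deposited TPM that list had 4 higher and 1 lower, beside 62.2% and 7.43% of all tested genes on that scale.

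Of 20 tested transcriptional regulators of class I, 6 rose and 4 fell with casting (limma), close to the background of 28.7% higher and 27.7% lower among all tested genes, so the counts say nothing particular about the regulators. Nfkb2 and Relb, partners of the non-canonical NF-kappa-B pathway, had the largest changes. Nfkb2 averaged 53.1 ± 15.8 scaled TPM in casted and 4.55 ± 0.33 in uncasted muscle, a log2 change of 3.23 (SD, n = 8 each; limma adjusted p = 7.35e-09). Relb averaged 21.9 ± 4.53 in casted and 4.39 ± 0.54 scaled TPM in uncasted muscle, a change of 2.07 (limma adjusted p = 2.21e-09). Rela changed by 0.94, Stat3 by 0.90, Rfx5 by 0.87 and Nfkb1 by 0.22. Those that fell included subunits of the CCAAT-binding factor, Nfyb at -0.53 and Nfyc at -0.26, and Rfxank at -0.27. Nlrc5, the class I transactivator, averaged 0.75 ± 0.30 in casted and 0.80 ± 0.34 scaled TPM in uncasted muscle and did not pass, nor did the interferon-response factor Irf1, at -0.09. On the deposited TPM, 16 of the 20 were higher and 0 lower, beside 62.2% and 7.43% of all tested genes on that scale. Of 9 tested interferon receptor and signalling genes, 4 rose and 2 fell, with Socs3, a feedback inhibitor of cytokine signalling, at 1.81, the kinase Tyk2 at 0.65 and the receptor chain Ifnar2 at 0.55 against Jak2 at -0.92. With MOTS-c against casting alone, 0 genes of these lists passed.

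Markers of several other cell types moved with casting. Beside them, 28.7% of all tested genes were called higher and 27.7% lower, or 62.2% and 7.43% without scaling. Without scaling, 10 of 10 macrophage, 5 of 5 pan-leukocyte and 4 of 4 tested neutrophil markers were higher. The 10 macrophage markers summed to 91.6 to 187 scaled TPM in casted muscle with MOTS-c, 73.7 to 173 in casted muscle and 51.4 to 71.7 in uncasted muscle, and 8 of 10 rose with casting (limma). The 5 pan-leukocyte markers summed to 12.4 to 32.2 with MOTS-c, 10.8 to 34.1 in casted muscle and 9.01 to 12.3 in uncasted muscle, and 4 of 5 rose. Neutrophil markers summed to 3.997 to 22.8 with MOTS-c, 4.71 to 18.6 in casted muscle and 0.17 to 1.61 in uncasted muscle, and 4 of 4 tested rose, with Ly6g at 0 in 4 or more libraries of every group. All 7 endothelial markers fell with casting, with sums of 89.6 to 117 with MOTS-c, 72.6 to 108 in casted muscle and 104.9 to 147 in uncasted muscle. Without scaling, 1 of the 7 was higher and 2 were lower. Of 5 fibro-adipogenic markers, 0 rose and 3 fell with casting (2 higher and 2 lower without scaling), with sums of 321 to 605 with MOTS-c, 263 to 640 in casted muscle and 455 to 681 in uncasted muscle. Of 5 erythroid markers, 0 passed (4 higher without scaling). The 1 dendritic cell marker tested rose, with sums of 2.59 to 5.32 with MOTS-c, 2.88 to 5.14 in casted muscle and 2.53 to 3.21 in uncasted muscle for all 5. None of the 10 T and NK cell markers or 4 B cell markers was expressed enough to be tested, with sums of at most 1.47 and 0.75 scaled TPM, and Cd8a, Nkg7 and Gzmb were at 0 in 4 or more libraries of every group. Leukocytes, endothelial cells and fibroblasts express class I genes. The part of these cell types in the changes of H2-D1, H2-K1, Psmb10 and Psme1 was not tested.

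Within groups, the members varied in part together. Over 24 libraries centred on their group means, which share the same scaling, Pearson's r was 0.657 for H2-K1 with H2-D1, 0.605 for B2m with Tap1 and 0.544 for Psmb8 with B2m, given as descriptions. The tested genes most like Psmb8 by the same measure were Pira2, an immunoglobulin-like receptor of myeloid cells (r = 0.819), the focal adhesion protein Zyx (r = 0.813) and the basement membrane collagen Col4a1 (r = 0.771). Those most like H2-K1 were Fam241b (r = 0.742), the processed pseudogene Gm9333 (r = 0.663) and Tdp1 (r = 0.661). These genes were picked as the highest among the 14690 tested genes, members left out, so a high r comes in part from the search. Without the 2 libraries where each gene lay farthest from its median, r was 0.788, 0.751 and 0.745 for those like Psmb8. For those like H2-K1 it was 0.708, 0.596 and 0.545.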

How the data were processed

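Poly-adenylated RNA of 24 gastrocnemius libraries was measured, 8 per group. The tools STAR, RSEM, FastQC and DESeq2 and the build GRCm38.p6 are named per the submitters' processing notes; versions, annotation release and strandedness are not given in the sources used here. Deposited values are TPM per Ensembl gene, made by the authors, and hold no depth. Symbols came from a GENCODE GRCm38 annotation (55141 of 55487 identifiers matched).

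TPM were scaled by an unweighted trimmed mean of log ratios (30% of ratios, 5% of levels trimmed at each end). Genes reaching a TPM of 0.5 in 8 or more libraries were tested with limma 3.58.1 (R 4.3.3; log2(scaled TPM + 1), mean-variance trend, 1 fit of 3 group means), checked on simulated data. Transcripts were compared with blastn 2.17.0. Alternatives were other scalings, pseudocounts and filters, 2-group fits, a replicate block, sets of casted replicates and omission of each library.

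The members and lists were chosen with earlier results of these data known. All 10 members are named, plus, from each list, up to 3 genes of smallest p in the main direction of calls and 1 the other way (any gene of the constitutive subunit and regulator lists; 1 gene is not reported here), and the 3 genes most like Psmb8 and H2-K1. The labels give 1 library per numbered replicate. The p-values set differences between group means against the spread between these libraries.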

Additional observations from a re-analysis of the deposited data

Results flagged for a closer look

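In 3 of 45 groups of 8 libraries checked, 1 library lay far from the others, where chance flags about 1 in 20. Psme1 was lowest in MOTS-c replicate 6, at 23.6 scaled TPM, while the other MOTS-c libraries had 31.7 to 40.3. H2-D1 was lowest in uncasted replicate 5, at 38.4 scaled TPM, while the other uncasted libraries had 43.7 to 48.6. Tapbp was lowest in the same library, at 12.1 scaled TPM, while the others had 16.8 to 20.2. Without uncasted replicate 5 the log2 change of H2-D1 with casting was 0.42 and that of Tapbp was -0.16, and neither call changed. Without MOTS-c replicate 6 the log2 change of Psme1 against uncasted muscle was -0.35, and it still passed the test.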

How the results depend on the processing

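Median-of-ratios scaling, a pseudocount of 0.1 and no filter changed no call. On deposited TPM without scaling, 7 members were higher and 0 lower in casted against uncasted muscle and also with MOTS-c against uncasted muscle; B2m (0.42) and Tapbp (0.40) turned higher with casting and Tapbp (0.30) with MOTS-c against uncasted muscle, where Psme1 was at 0.014 and did not pass. In another setting, mitochondrially encoded genes were removed and the rest rescaled to a fixed total, with no other scaling, so that both choices changed. The counts were then 7 and 0 for casting and 6 and 0 for MOTS-c against uncasted muscle, with B2m at 0.32 and Tapbp at 0.30 for casting. The share of all tested genes in this setting is not given here. On deposited TPM without scaling, 62.2% of all tested genes were higher and 7.43% lower with casting. The shares were 60% and 6.94% for MOTS-c against uncasted muscle. The counts of both settings were therefore not read as results about the members.

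Only 1 member, H2-D1, was higher with casting under a mean TPM of at least 5 (7 members tested), in the 2-group fit and with only casted replicates 1 to 4 or only 5 to 8; the cause was not tested. With only casted replicates 5 to 8, 1 member (B2m) was higher with MOTS-c than with casting alone. The shares of all tested genes called in these fits are not given here. Neither are those for the replicate block or for fits with 1 library left out. The counts were therefore not read as results about the members. Same-numbered libraries had correlations of -0.24 to 0.37, above 0.1 in 1, 2 and 3 of 8 pairs. Of 8 libraries, 2, 2 and 3 were best correlated with their own number. Pairing by number was therefore not settled. The second principal component of the tested genes was lowest at replicate 8 of every group. From replicate 1 to replicate 8 it went from 6.08 to -9.33 without casts and from 19.3 to -24.8 with casting alone. For MOTS-c it went from 8.71 to -10.4, with 21.7 at replicate 3. An order shared along the replicate number was not tested. With the replicate block, 1 member was higher with casting, and the ratios Psmb8/Psmb5 (-0.68, adjusted p = 0.0781, exact test) and H2-K1/B2m (0.28 for casting and 0.26 for MOTS-c against uncasted muscle) missed the threshold.

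With 1 added to both TPM, Psmb8/Psmb5 (-0.49) and Psmb9/Psmb6 (-0.54) for MOTS-c against uncasted muscle, Psmb9/Psmb6 (-0.78) for casting and Psmb10/Psmb7 (0.33) for MOTS-c against casting passed. Here 1 was added to deposited TPM, so these ratios, unlike the main ones, depend on the scale between libraries. The part of that scale in these calls was not tested. For the main ratios with only casted replicates 1 to 4, Psmb8/Psmb5 (-0.54) and H2-K1/B2m (0.13) for casting missed the threshold. For only 5 to 8, H2-D1/B2m (-0.36) for MOTS-c against casting passed, on a split seen in these same data.

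Leaving out 1 library, 1 to 3 members were higher and 2 to 2 lower with casting, 2 to 3 higher and 2 to 2 lower for MOTS-c against uncasted muscle, and 0 to 0 either way for MOTS-c against casting. Ratio differences for casting ran from -0.81 to -0.58 (Psmb8/Psmb5), -0.90 to -0.45 (Psmb9/Psmb6), -1.33 to -1.23 (Psmb10/Psmb7), 0.24 to 0.36 (H2-K1/B2m) and 0.50 to 0.60 (H2-D1/B2m). For MOTS-c against casting they ran from 0.22 to 0.45, 0.03 to 0.51, 0.27 to 0.39, -0.11 to 0.02 and -0.27 to -0.18, in the same order. For MOTS-c against uncasted muscle they ran from -0.43 to -0.28, -0.57 to -0.17, -1.003 to -0.89, 0.22 to 0.30 and 0.29 to 0.35. Depth is unknown, so the precision of the low genes Psmb9 and Tap1 is set by the spread between libraries.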
